A study of Meleagris gallopavo with 18 samples.

Results

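The 200 loci described here were counted in the testis of every turkey and had 0 counts in every sample of the epididymis and the ductus deferens. They were chosen by rule from 56037 loci. Counts were scaled to CPM, the count of a locus divided by the total of its library and multiplied by 1000000. CPM is not scaled by transcript length, so levels of different loci compare counts and not molecules. Loci with 0 counts in all 12 libraries of both ducts were kept, and the first 200 were taken after ranking by the lowest CPM among the 6 testes. The measured tissue difference therefore chose the loci, and their levels in testis against the ducts are given as a description with no test. The identifiers (MSTRG) are those of the transcript assembly that the authors merged over all samples. None of the 200 loci was paired with a gene symbol in the files or tables used, so no gene function can be given for any of them.

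RNA-seq was performed on 3 tissues of 6 male turkeys (Meleagris gallopavo), the testis (T), the epididymis (E) and ductus deferens (DD). The birds carry the numbers 2, 11, 12, 14, 15 and 16, and each gave 1 library of every tissue. They were sampled at 38 weeks, after photostimulation at 26 weeks with 14 h light and 10 h darkness. There was no treated group, and whole tissue was sequenced as polyadenylated RNA. In whole tissue, fewer cells of a type and less RNA per cell cannot be told apart.

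Spermatogenesis takes place in the seminiferous tubules of the testis, where germ cells pass through meiosis and spermatids are rebuilt into spermatozoa. The testis of mammals and birds transcribes an unusually large part of the genome, including long non-coding RNAs (lncRNAs) and unannotated loci, mainly in meiotic and post-meiotic germ cells. The epididymis and the ductus deferens are epithelial ducts that store and transport the spermatozoa, which are transcriptionally inactive but carry RNA left from their formation in the testis.

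The depth ranged from 81438457 to 100159106 counts per library in T and from 64143451 to 118625345 in the ducts. The tissue labels were set beside marker lists. Only genes that the supplementary tables pair with a locus could be matched. These tables name mainly genes that differ between these tissues, so the sums are not an independent check of the labels. The 8 germ cell markers matched of 16 summed to 1135 to 1870 CPM in T, 68.2 to 238 CPM in E and 5.84 to 33.2 CPM in DD. The 10 duct epithelium markers matched of 10 summed to 52.5 to 85.8 CPM in T, 546 to 1410 CPM in E and 795 to 1614 CPM in DD. Single markers did not all follow these sums. The means of LRP2, HNF4A and PLA2G12B were lower in DD than in T, with 11.3 CPM in T and 1.75 CPM in DD for LRP2. KRT19 differed little between T (17.4 CPM) and E (20.4 CPM). Of the germ cell markers, RFX2 had a higher mean in E (56.3 CPM) than in T (48.2 CPM). The means of the other markers in both lists followed the sums. None of these marker loci was at 0 in all duct libraries. Markers of Sertoli and Leydig cells and of blood cells were not matched, and of 6 smooth muscle markers only CSRP1 was. The epididymis of bird 12 stood apart, with counts on 17596 loci only and 30.9% of its counts on a single locus. Without this library, 191 of the 200 loci remained among the first 200.

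Of all loci, 12912 had 0 counts in the 12 duct libraries. Of these, 372 were at 0 in T as well and 12540 had counts in T only. Most of the loci counted in T only were seen in some testes but not in others. Among them, 2457 had counts in 1 testis, 2505 in 2, 2226 in 3, 2007 in 4, 1801 in 5 and 1544 in all 6. The 200 loci are the first 200 of these 1544. At 0 counts, a library allows up to 3 counts, which is 0.0253 CPM in the deepest duct library and 0.0468 CPM in the shallowest. These limits cover counting error only.

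The 200 loci took few counts. Their mean level over the 6 testes ranged from 0.643 to 19.5 CPM with a median of 2.12 CPM, and the quartiles were 1.44 and 2.96 CPM. In 9 loci the mean was below 1 CPM, in 144 from 1 to 3 CPM, in 30 from 3 to 5 CPM and in 17 it was 5 CPM or more. The number of counts per locus and testis ranged from 42 to 3137. Together the 200 loci took 280735 counts, or 0.0527% of all counts in T. The mean testis level was 13.7 to 417 times the highest level that 3 counts reach in a duct library, with a median of 45.2 times. The rule chose the zeros, so these ratios are no lower bounds on the true difference between the tissues.

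**Figure D1:**
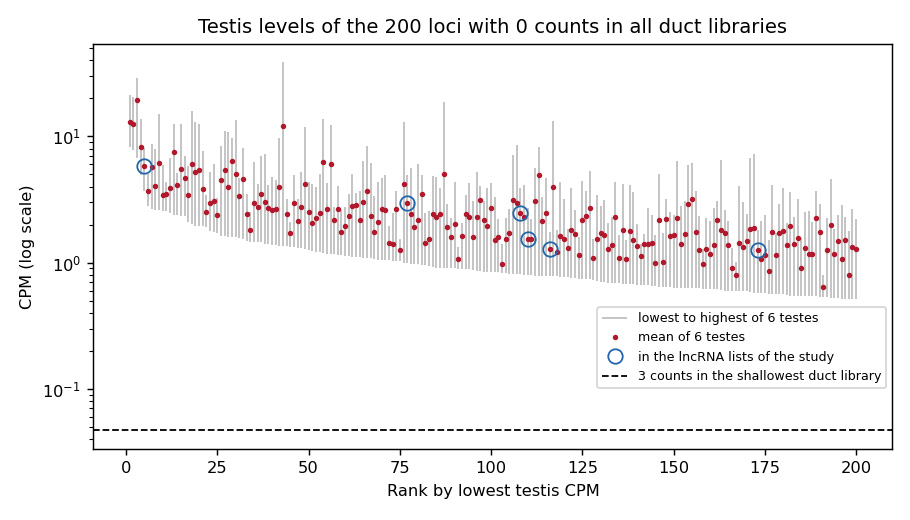
Level in the testis of the 200 loci against their rank by the lowest testis CPM, on a log axis. Each grey line runs from the lowest to the highest of 6 testes, the red point is the mean, blue circles mark the 6 loci of the lncRNA lists, and the dashed line is the 0.0468 CPM that 3 counts reach in the shallowest duct library. Every lowest testis value, down to 0.516 CPM at rank 200, lies above that line. This follows from ranking the loci by that value and stopping at rank 200.

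Loci without duct counts were found at low testis levels only. Among loci whose lowest testis level was above 0 and up to 0.05 CPM, 23.8% had 0 counts in all ducts. The share was 10.5% from 0.2 to 0.5 CPM, 5.10% from 0.5 to 1 CPM, 2.10% from 1 to 2 CPM, 0.437% from 2 to 5 CPM and 0.120% from 5 to 10 CPM. Of 5579 loci from 10 to 100 CPM and of 817 loci above 100 CPM, 0 were without duct counts. At or above the lowest level of rank 200, the series held 17512 loci, of which the 200 are 1.14%. As many as 7050 loci had a lowest testis level at or above that of the first-ranked locus.

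**Figure D2:**
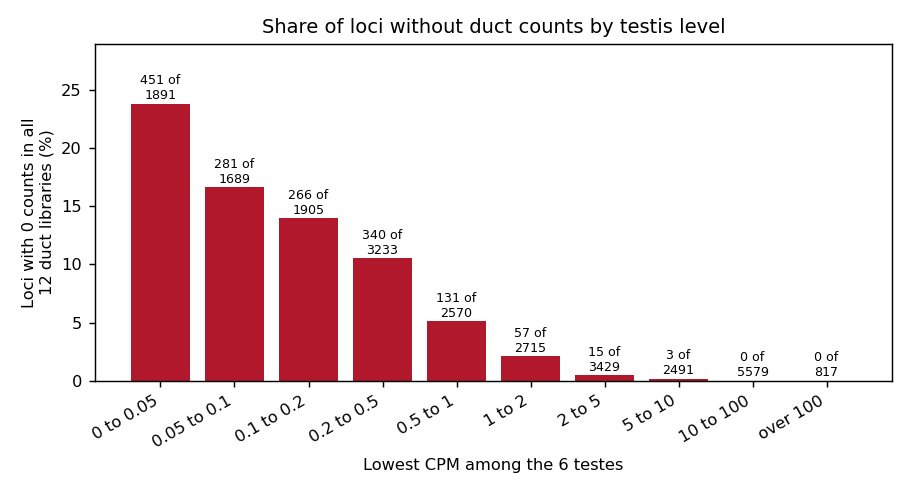
Percentage of loci with 0 counts in all 12 duct libraries, by the lowest CPM among the 6 testes, for loci with counts in every testis. Numbers above the bars give loci without duct counts and all loci of the level. The percentage falls from 23.8% in the lowest level to 0 of 5579 and 0 of 817 in the 2 highest.

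The first-ranked locus, MSTRG.27631, had a lowest level of 8.22 CPM, a median of 11.7 CPM and a highest level of 21.4 CPM in T, against 0 counts in E and DD. Its highest testis was that of bird 12 in CPM. After scaling by the trimmed mean of M-values (TMM), which replaces the library total, it was that of bird 11. The mean of the locus, 13.0 ± 4.53 CPM (SD, n = 6), was 277 times the 0.0468 CPM of 3 counts in the shallowest duct library. MSTRG.26412 had 7.81, 11.0 and 20.5 CPM as its lowest, median and highest levels in T, with bird 12 the highest in CPM and bird 15 after TMM scaling. MSTRG.34599 had the highest mean of all, 19.5 ± 8.18 CPM (SD, n = 6), with 6.79 CPM in bird 15 and 29.2 CPM in bird 11 as its extremes. Its mean was 417 times the same 0.0468 CPM. Only these 3 loci had more than 5 CPM in every testis.

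MSTRG.4243 had 4.94, 7.44 and 13.7 CPM as its lowest, median and highest testis levels, with bird 2 the highest. It was the only one of the first 10 whose counts lay mainly on a transcript of the Ensembl annotation (ENSMGAT00000016001, 93.2% of its counts). MSTRG.13455 had 3.68, 5.59 and 8.02 CPM and is described with the lncRNAs. The testis of bird 12 was its highest in CPM and that of bird 14 after TMM scaling.

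The means of the other 5 of the first 10 were 3.71 ± 0.963 CPM for MSTRG.11961, 5.71 ± 2.25 CPM for MSTRG.27999, 4.02 ± 2.08 CPM for MSTRG.17780, 6.19 ± 4.93 CPM for MSTRG.4400 and 3.40 ± 1.32 CPM for MSTRG.36440 (SD, n = 6 each). In MSTRG.4400 the testes of birds 12 (15.2 CPM) and 2 (8.76 CPM) were apart from the other 4, which lay between 2.60 and 4.04 CPM. In MSTRG.36440 bird 11 (5.96 CPM) was apart from the other birds, which lay between 2.55 and 3.64 CPM. In CPM, MSTRG.11961 was the most even of the first 10, from 2.81 to 5.05 CPM. After TMM scaling its SD was 28.0% of its mean, against 21.6% for MSTRG.13455 and 22.3% for MSTRG.26412. The highest value of any of the 200 loci in 1 testis was found further down the list, in MSTRG.39048 at rank 43, which is named because of that value. It had 38.5 CPM in bird 11, 6.02 to 10.3 CPM in birds 12, 14, 15 and 16 and 1.35 CPM in bird 2.

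The end of the list was set by small differences. The last 3 loci inside, MSTRG.31235, MSTRG.46736 and MSTRG.49607, had the same lowest level of 0.516 CPM, which is 42 counts in the testis of bird 11. The first 3 outside, MSTRG.24765, MSTRG.13521 and MSTRG.47190, had lowest levels of 0.509, 0.508 and 0.508 CPM, or 51, 43 and 43 counts. The condition of 0 duct counts was equally sharp. In the same range of testis levels, 64 loci had 1 to 3 counts in the ducts in all. Among these, MSTRG.40409 had 4.28 to 10.9 CPM in T and 3 counts in 1 library of DD, so that its lowest testis level was above that of all but 4 of the 200 loci. MSTRG.40694 likewise had 3 counts in 1 library of DD, and MSTRG.11928, MSTRG.31485 and MSTRG.14748 had 3 counts in 1 library of E. The lowest testis levels of these 4 ranged from 2.23 to 2.64 CPM.

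In total, 6 of the 200 loci were found in the lists of differentially expressed lncRNAs of the study, which hold 246 of all 56037 loci. MSTRG.46558, MSTRG.37044 and MSTRG.45879 were in the lists of both ducts against T. MSTRG.13455, MSTRG.3991 and MSTRG.19790 were in that of DD against T but not in that of E against T. These lists were made on the same samples, so they are not independent of the tissue difference. A lncRNA is a transcript without a predicted protein. Their positions refer to the genome build Turkey_2.01. MSTRG.13455 lies on chromosome 12 (chr12:13906168-13924415), MSTRG.46558 on chromosome 9 (chr9:7673393-7833815), MSTRG.3991 on chromosome 1 (chr1:79355893-79363785), MSTRG.19790 on chromosome 2 (chr2:3451300-3459477), MSTRG.37044 on chromosome 4 (chr4:67009754-67022800) and MSTRG.45879 on chromosome 8 (chr8:34148229-34154520). The exons and the neighbouring genes of these positions were not analysed here, apart from 1 pair. The supplementary annotation places MSTRG.46558 between genes, facing the gene ENSMGAG00000004449 on the opposite strand in convergent orientation.

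MSTRG.13455 had the highest CPM of the 6 lncRNA loci, with 5.77 ± 1.82 CPM in T (SD, n = 6). MSTRG.46558 had 0.982, 2.74 and 4.97 CPM as its lowest, median and highest levels, with bird 15 the highest and bird 11 the lowest. MSTRG.3991 showed the opposite order of these birds, with 3.87 CPM in bird 11 and 0.804 CPM in bird 15, and a median of 2.80 CPM. MSTRG.19790 had 0.792, 1.23 and 2.73 CPM and was likewise highest in bird 11 and lowest in bird 15. In CPM, MSTRG.37044 was the most even of the 6, at 1.28 ± 0.330 CPM (SD, n = 6), and MSTRG.45879 had 0.577 to 1.81 CPM. After TMM scaling the SD of MSTRG.37044 was 23.7% of its mean, against 21.6% for MSTRG.13455. The 6 loci did not share an order of the birds.

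**Figure D3:**
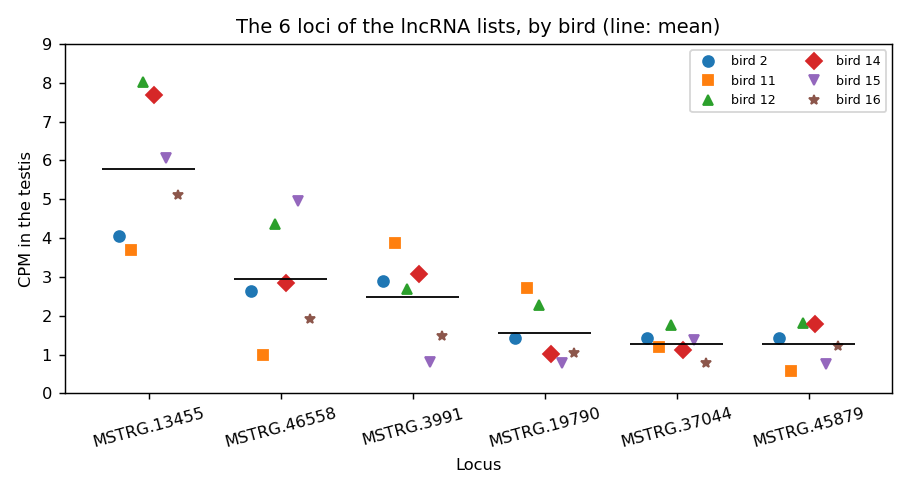
Level in CPM in the testis of the 6 loci that are also in the lncRNA lists of the study, 1 symbol per bird, with the mean of 6 testes as a line. MSTRG.13455 lies between 3.68 and 8.02 CPM. MSTRG.46558 is highest in bird 15, and MSTRG.3991 and MSTRG.19790 are highest in bird 11.

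Few of the 200 loci carried a reference annotation. Only 16 of them (8%) had counts on an Ensembl transcript, against 41.6% of the 10263 loci with duct counts in the same range of lowest testis levels. The loci with duct counts lie mostly at higher testis levels, where annotation is more frequent. Within a level, loci without duct counts had an Ensembl transcript in 6.11% from 0.5 to 1 CPM, against 23.7% of all loci, in 5.26% from 1 to 2 CPM, against 33.9%, and in 33.3% (5 of 15) from 2 to 5 CPM, against 47.7%. Among the 1344 further loci with counts in all 6 testes and none in the ducts the share was 4.02%. The Ensembl transcript was identified for 15 of the 16 by matching counts over all 18 libraries. In 8 loci all counts lay on the Ensembl transcript. Among these, 2 are named because of their annotation. They were MSTRG.957 (ENSMGAT00000009377) with 4.70 ± 1.78 CPM and MSTRG.54985 (ENSMGAT00000009709) with 6.43 ± 2.77 CPM in T (SD, n = 6 each). The name and the role of these transcripts are not given in the sources used here.

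The loci had few assembled transcripts, with a median of 1, as in the loci with duct counts in the same range. The assembly gave 1 transcript in 98 loci, 2 in 55, 3 in 19 and 4 or more in 20, and in 8 loci the Ensembl transcript was the only one. A single assembled transcript and no Ensembl transcript was found in 92 loci (46.0%), against 35.7% of the loci with duct counts in the same range and 85.3% of the 1344 further loci without duct counts. Loci with an Ensembl transcript cannot enter this count, and they were 8% of the members and 41.6% of the loci with duct counts. The first 2 shares therefore do not show fewer assembled transcripts in the members. In the 100 loci with several transcripts, the leading one held a median of 74.6% of the counts, with a range from 24.6% to 99.4%, and it led in all 6 birds in 42 loci. MSTRG.12411 and the lncRNA locus MSTRG.46558 had 7 assembled transcripts each and MSTRG.23859 had 6. Their leading transcripts held 36.7%, 24.6% and 41.4% of the counts, and in MSTRG.46558 the leading transcript of all birds together led in 1 bird only. MSTRG.12411 had 1.55, 4.11 and 8.03 CPM as its lowest, median and highest testis levels. MSTRG.23859 had 1.16, 4.79 and 12.4 CPM. Both were highest in bird 2 and lowest in bird 15.

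The numbers of the loci follow their order along the chromosomes in most cases. Of 189 successive loci of the lncRNA lists on the same chromosome, 177 were in ascending order. Of the 400 loci directly before or after a member in this numbering, 163 (40.8%) were at 0 in all ducts, against 23.0% of all loci. The 163 include 10 that are members themselves and at 0 by the rule. The 23.0% covers loci of all testis levels, and the share at the levels of the neighbours was not computed. On the other side, 71 of the 400 had more than 1000 duct counts. In 5 cases, 2 members stood next to each other. In the pair MSTRG.26412 and MSTRG.26413 the ratio of the first to the second was 17.3 in bird 12 and 1.22 to 2.57 in the other birds. In the pair MSTRG.3990 and MSTRG.3991 it was 0.314 to 0.512 in birds 2, 11 and 12 and 1.29 to 3.19 in birds 14, 15 and 16. The ratio of neighbouring loci was thus not constant over the birds.

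The levels of the 200 loci varied among the birds. The coefficient of variation (CV) over the 6 testes had a median of 49.3%, against 49.5% for the 10263 loci with duct counts in the same range. The highest testis had a median of 4.10 times the lowest. This ratio was under 2 in 12 loci and over 10 in 12, with a range from 1.49 to 28.5. The most even loci were MSTRG.16602 with 1.07 ± 0.160 CPM, MSTRG.34419 with 1.25 ± 0.189 CPM and MSTRG.10740 with 1.73 ± 0.273 CPM (SD, n = 6 each). The CVs of these 3 were 15.0%, 15.1% and 15.8% in CPM. After TMM scaling they were 22.5%, 36.2% and 10.8%, and the last was then the lowest of all 200 loci.

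In CPM the most uneven loci were all highest in the testis of bird 12. MSTRG.14380 had 7.31 CPM in bird 12 and 0.577 to 1.40 CPM in the other 5 birds (CV 143%). MSTRG.42638 had 18.6 CPM in bird 12 and 0.909 to 5.12 CPM in the others (CV 137%). MSTRG.33585 had 6.77 CPM in bird 12 and 0.583 to 1.22 CPM in the others (CV 131%). Bird 12 remained the highest in these 3 loci after TMM scaling, with CVs of 112%, 109% and 98.9%, but the largest CV was then 136% in another locus. A CV above 100% was found in 7 of the 200 loci in CPM and in 10 after TMM scaling. Of the 26 named members, 16 had the same highest bird in both scales.

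The sum over the 200 loci was 595 CPM in the testis of bird 2, 555 CPM in bird 11, 733 CPM in bird 12, 435 CPM in bird 14, 404 CPM in bird 15 and 447 CPM in bird 16, or 528 ± 125 CPM (SD, n = 6). The highest testis of a locus was that of bird 12 in 89 of 200 loci, of bird 11 in 39, of bird 2 in 38, of bird 15 in 18, of bird 16 in 9 and of bird 14 in 7. Bird 12 was also the highest in 44.9% of the loci with duct counts in the same range. This order depended on the scaling. After TMM scaling the sum was 514 in bird 2, 661 in bird 11, 424 in bird 12, 374 in bird 14, 338 in bird 15 and 394 in bird 16, and bird 11 was the highest in 81 loci and bird 12 in 27. The TMM factor was 1.73 in the testis of bird 12 and 0.841 in that of bird 11. The germ cell markers summed to 1870 CPM in the testis of bird 11, 1520 CPM in that of bird 12 and 1135 to 1354 CPM in the other 4. Single markers did not share this order. HORMAD1, TEKT2, TEKT3 and PCSK4 were highest in the testis of bird 11. MAK, RFX2 and SLC26A8 were highest in that of bird 12, and MEIOC in that of bird 15. MEIOC (31.4 CPM) and MAK (8.66 CPM) were lowest in the testis of bird 11. The marker levels are in CPM only and were not computed after TMM scaling, which could change their order as well. The part of cell composition and scaling in the order of the birds was not tested.

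**Figure D4:**
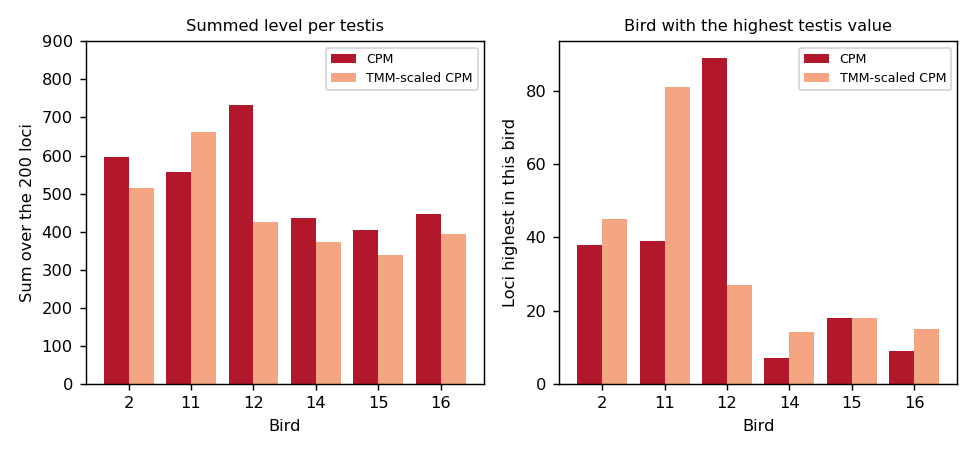
Left, sum over the 200 loci in the testis of each bird in CPM (dark bars) and in CPM scaled by TMM (light bars). Right, number of the 200 loci whose highest testis was that bird, in the same 2 scales. Bird 12 leads in CPM (733 CPM, 89 loci) and bird 11 after TMM scaling (661, 81 loci).

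To read the choice in libraries that it had not used, the list of 200 was chosen again on the 15 libraries of 5 birds and then read in the 3 libraries of the bird left out. In the testis of that bird, 198, 200, 199, 200, 188 and 199 of the 200 loci had counts, for birds 2, 11, 12, 14, 15 and 16 left out in turn. In its epididymis 30, 103, 8, 21, 40 and 16 loci had counts, and in its ductus deferens 10, 9, 5, 7, 14 and 13. With both ducts together this gave 36 of 200 in bird 2, 107 in bird 11, 13 in bird 12, 28 in bird 14, 48 in bird 15 and 28 in bird 16. Of the loci at or above the same lowest testis level that had duct counts in the 5 birds, most of which lie at higher testis levels, 87.4% to 98.5% had counts in a duct of the bird left out. The testis was above both ducts of the same bird in 188 to 200 of the 200 loci. This number and that of loci with testis counts were not taken for other loci of the same testis level. They are therefore given as a description only. Where a duct had counts, the median of its higher duct level was 0.0632 to 0.177 CPM. More than 3 counts in a duct were found in 26, 93, 8, 22, 41 and 19 of the 200 loci, in the same order of birds. The limit of 3 counts thus did not hold for all loci in libraries outside the choice.

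**Figure D5:**
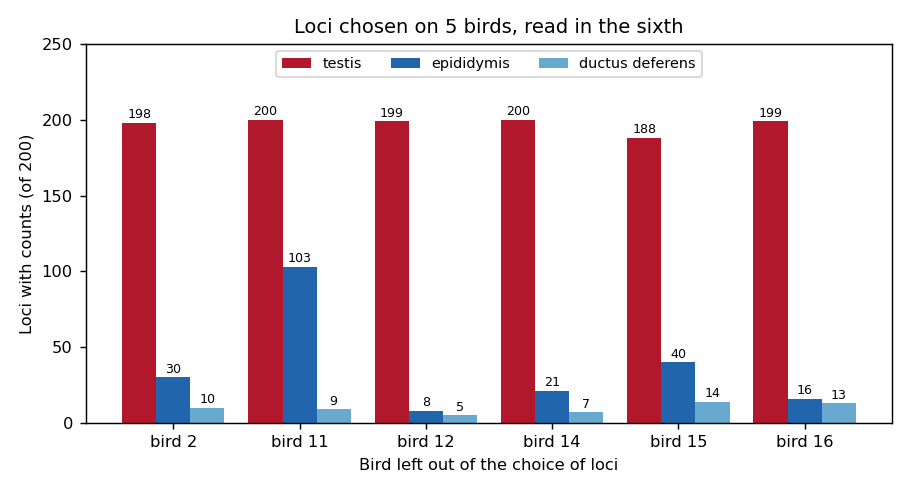
Number of loci with counts in T, E and DD of a bird that was left out when the 200 loci were chosen on the other 5 birds. The testis bars lie between 188 and 200, the epididymis bars between 8 and 40 except bird 11 with 103, and the ductus deferens bars between 5 and 14.

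The epididymis of bird 11 shaped the list more than any other duct library. It had counts on 34711 loci, the most of the 12 duct libraries, from 112159881 counts, while the epididymis of bird 2 had more counts (118625345) on 32631 loci. At or above the testis level of rank 200, 316 loci had counts in a single duct library, and in 152 of these it was the epididymis of bird 11. The next were the epididymides of bird 15 with 37 loci and of bird 2 with 30, whereas each library of DD accounted for 4 to 14. In an alternative added after the data were seen, leaving out the epididymis of bird 11 replaced 96 of the 200 loci and raised the loci with counts in all testes and none in the ducts to 2091, against 1544. The germ cell markers summed to 161 CPM in this library and to 68.2 to 238 CPM in the other epididymides. The highest of these sums was that of bird 14. HORMAD1 alone did not follow the sum, with 12.9 CPM in the epididymis of bird 11 and 4.71 to 9.33 CPM in the others. The other markers were all highest in the epididymis of bird 14. RFX2, with 101 CPM there, had a mean of 56.3 CPM in E and 48.2 CPM in T. What set the epididymis of bird 11 apart was not tested.

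Among the loci kept out by that library, MSTRG.2512 is named because of its values. It had 185 CPM (15026 counts) in the testis of bird 11 and 123 CPM (13837 counts) in the epididymis of that bird. Its testis levels in the other birds were 2.72 to 108 CPM, and it had 0 counts in the other 11 duct libraries. The next highest count among the 316 loci was 102. The locus before it in the numbering, MSTRG.2511, showed the reverse. It had 0 counts in 5 of 6 testes and in the epididymis of bird 11, and 68.1 to 373 CPM in the other 11 duct libraries. The testis of bird 14, the only one with counts on MSTRG.2511 (97.7 CPM), was also the lowest for MSTRG.2512 (2.72 CPM). In 17 of 18 libraries only 1 of these loci had counts. A count of 0 on an assembled locus can thus stand beside a high count on the adjacent one. Neighbours counted mainly in the ducts were also found beside members. Of 800 pairs of a member and a locus within 2 numbers of it, 7, with 6 members, met 2 conditions. The neighbour had counts in all 12 duct libraries and a mean level over 10 times higher in the ducts than in T. The share of such loci among all loci was not computed. Examples, named for these values, are MSTRG.292 beside MSTRG.293, with 0.541 CPM in T, 45.8 CPM in E and 128 CPM in DD, and MSTRG.27738 beside MSTRG.27737, with 0.588 CPM in T, 48.6 CPM in E and 128 CPM in DD. Whether reads of members were counted on a neighbour in the ducts was not tested.

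All 200 loci passed the threshold as higher in T with the edgeR quasi-likelihood test, both against E, where 23% of 28489 tested loci were called higher in T, and against DD, where 30.4% of 27550 were. The rule used both contrasts, so these counts were fixed by the choice and nothing is read from them. With the bird as a block, 92 of the 200 were called higher in T against E. Of all loci, 3998 were called higher there with the block, and 6551 without it. Against DD, 189 of the 200 were called with the block, and the matching count of all loci is not given. The loci were chosen on the same tissue difference, so nothing is read from the counts with the block either.

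Genes listed for meiosis and spermatid formation were measured beside these loci. Whether their counts in the ducts came from germ cells was not tested. Of a list of 94 genes of meiosis and spermatid formation, 20 were paired with a locus by the supplementary tables. The tables name mainly genes that differ between these tissues, so the list is not independent of the tissue difference. In T against E, 13 of the 20 were called higher in T (background 23%), 1 was called lower (background 12.9%) and 6 were not called (edgeR, Benjamini-Hochberg adjusted p below 0.01, fold change over 1 on the log2 scale). In T against DD, all 20 were called higher (background 30.4%), where the background of genes lower in T was 14.9%. The median log2 fold change of the list was 2.11 and 6.24 in these comparisons, and that of all tested loci was 0.30 and 0.59. With the bird as a block, 12 and 19 were called higher, and fewer of all loci were called higher against E than without it.

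MEIOC, which keeps germ cells in the meiotic programme in the mouse, had the largest fold change in both comparisons. It had 31.4, 109 and 148 CPM as its lowest, median and highest levels in T, against 0.0421, 0.741 and 1.85 CPM in E, and 0 counts in 4 of 6 libraries of DD with 0.0798 CPM as the highest. Its log2 fold change was 6.79 ± 0.82 (SE) against E (edgeR adjusted p = 2.26e-05) and 11.68 ± 0.87 against DD (edgeR adjusted p = 2.64e-07). T did not overlap with either duct, while the ranges of E and DD overlapped.

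CLGN, a chaperone of the endoplasmic reticulum needed for sperm fertility in the mouse, was the exception. It had 11.0, 74.3 and 252 CPM in T, against 103, 418 and 603 CPM in E and 10.5, 17.1 and 25.7 CPM in DD. Its log2 fold change was -2.47 ± 0.50 against E (edgeR adjusted p = 0.000905) and 1.95 ± 0.50 against DD (edgeR adjusted p = 0.0041, and 0.0213 with the bird as a block). The testis of bird 12 overlapped the range of E, and that of bird 11 lay within the range of DD.

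The genes not called against E were MAK and RFX2, a kinase and a transcription factor of male germ cells, SLC26A8, an anion transporter of the sperm, DNAI1 and DRC7, components of the axoneme of the flagellum, and IQUB. Their log2 fold changes were 0.82 for MAK, -0.43 for RFX2, 2.09 for SLC26A8, 0.51 for DNAI1, 0.86 for DRC7 and -0.26 for IQUB, with edgeR adjusted p from 0.0235 (DRC7) to 0.66 (IQUB). SLC26A8 and DRC7 were called higher with DESeq2, which called 15 of the 20 and also called more of all loci higher than edgeR. SLC26A8 was also called without the epididymis of bird 12 (log2 fold change 1.84) and DRC7 with the upper quartile (1.11). The value of IQUB changed sign with the processing, to 0.11 with DESeq2, 0.08 with library size alone and 0.02 without bird 11. HORMAD1, a protein of the meiotic chromosome axis, had 357 to 531 CPM in T, 4.71 to 12.9 CPM in E and 2.03 to 6.17 CPM in DD. Every one of the 20 genes had duct counts, 446 in all 12 duct libraries for KIF18A and 475 for MEIOC at the low end. Their mean testis levels were 36.0 to 421 CPM, against 0.643 to 19.5 CPM for the 200 loci.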

How the data were processed

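Reads were trimmed by the authors (Trimmomatic 0.38) and aligned to version 2.01 of the turkey genome (STAR 2.4), and one merged assembly of all samples was built with StringTie 1.3.3. The libraries were strand-specific. The authors deposited raw counts per locus and per transcript, as whole numbers without normalization. The counting tool and its strand setting are not given in the sources used here, and counts of overlapping loci are uncertain. A locus counted on a neighbouring or overlapping model in some libraries would change the list, since the rule asks for exact zeros.

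The members and the gene lists were chosen with earlier results of these data known. Tissue and bird were taken from the labels, and each tissue of a bird is 1 sample. CPM used the column totals. The loci were ranked and described in Python 3.11.15 with pandas 2.3.3 and numpy 2.4.6, and figures were drawn with matplotlib 3.10.9. Named were the first 10 members, the lncRNA members, the 3 loci on each side of rank 200, the 3 largest and smallest CVs, the 3 with the most transcripts, and the 5 loci with the highest lowest testis CPM among those with 1 to 3 duct counts. Counts on Ensembl transcripts are the counts of a locus minus those of its assembled transcripts. A transcript was identified where this remainder equalled its counts in all 18 columns, which gave a listed partner for 54 of 55 loci with partners in the supplementary tables.

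Tissues were compared with edgeR 4.0.16 (R 4.3.3; TMM, filter on low counts, robust quasi-likelihood fit, Benjamini-Hochberg adjustment over all loci tested) on the 12 samples of 2 tissues, with the limits of the study (adjusted p below 0.01, fold change over 1 on the log2 scale). The tissues of a bird are paired by origin. The correlation of their deviations from the tissue means was 0.0154 for T and E and 0.00179 for T and DD over 33134 loci. On simulated data the test recovered 96 of 130 changed loci (73.8%) for T and E and 104 of 128 (81.2%) for T and DD. The simulated loci shared a single spread parameter and a single size of change, and all other loci were equal between the tissues. These shares therefore do not give the recovery in the real data, where far more loci differed. Alternatives were DESeq2 1.42.0, other scalings, no filter, a block for the bird, leaving out each bird, thinned libraries and other rankings. No 2 columns were identical.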

Additional observations from a re-analysis of the deposited data

Results flagged for a closer look

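In 5 of 26 named loci, 1 testis stood far from the other 5 by Dixon's ratio for 6 samples. These were 5.96 CPM in bird 11 for MSTRG.36440, 1.76 CPM in bird 15 for MSTRG.31235, and, in bird 12, 6.77 CPM for MSTRG.33585, 18.6 CPM for MSTRG.42638 and 7.31 CPM for MSTRG.14380. The last 3 were named for their large CV, and such a gap is part of a large CV. Over all 200 loci, 35 (17.5%) had such a testis, in 17 of them that of bird 12 and in 0 that of bird 14. Chance gives about 1 in 20 groups where values are normally distributed, and these loci are not independent of each other. They were also ranked by their lowest testis, and the share among loci with duct counts was not computed. No excess is therefore read from the 17.5%.

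For CLGN, the testis of bird 12 stood apart with 252 CPM from the other testes at 11.0 to 84.1 CPM. Among the lists chosen on 5 birds, the number of loci with duct counts in the bird left out was 107 of 200 for bird 11 and 13 to 48 for the other birds.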

How the results depend on the processing

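Of 757 values under alternatives, 714 kept their direction and side of the threshold, or their size. The values include the calls of the 200 loci, which were chosen on the same tissue difference. The settings with an adjusted p under 0.05 or without a limit on the fold change reused the main fit, so no direction could change there. The total is therefore no measure of stability. The loci with counts in all testes and none in the ducts numbered 1544, and 789 with at least 10 counts per testis. They were 1800 to 2467 with 1 bird left out. The list shared 128 of 200 loci with one ranked by mean CPM, 85 to 177 with lists chosen without 1 bird, 104 without the epididymis of bird 11 and 97 without both its ducts (the last pair added after the data were seen). The summed level was 655 CPM when ranked by the median, 508 to 912 CPM without 1 bird and 898 CPM without the epididymis of bird 11. The median level was 1.98 to 3.27 CPM and 3.03 CPM in these last alternatives. The cause was not tested.

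DESeq2 called 19018 loci in T against E (14901 higher in T), where edgeR called 10237 loci (6551 higher in T). In T against DD it called 20915 (16458 higher in T), where edgeR called 12470 (8378 higher in T). Without the filter on low counts, 10573 and 12683 loci were called higher in T. With the bird as a block, 6262 loci were called against E, 3998 higher and 2264 lower, and 92 of the 200. The log2 fold change of IQUB against E was 0.11 with DESeq2, 0.079 with library size alone and -0.79 to 0.017 with 1 bird left out. Of the 20 germ cell genes, NDC80 against E (edgeR adjusted p = 0.046) and CLGN against DD (edgeR adjusted p = 0.0213) were no longer called with the block, nor was NDC80 without bird 2, 14 or 16 or CLGN without bird 2, 12, 14 or 15. SLC26A8 against E was called with DESeq2, without bird 12, without its epididymis alone and at an adjusted p under 0.05, and DRC7 with DESeq2 and the upper quartile. The block moved no other count by over 1.5 times. At 0 counts, levels up to 0.0468 CPM could not be detected in the shallowest duct library.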
